A study of Mus musculus with 23 samples.

Results

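Mef2a, Mef2c and Mef2d were followed at the RNA level in C2C12 cells, mouse myoblasts that divide in rich medium and form myotubes after serum is withdrawn. The 3 genes were taken by symbol from the 32793 genes of the deposited tables, and were picked as a family because Mef2c differed most between genotypes among the muscle genes on day 3. That day 3 comparison is therefore described without a test. Poly(A)-selected RNA was sequenced from 23 libraries in 8 groups. WT and Runx1KO cells were taken while growing in 20% fetal bovine serum (day 0) or after 1, 3 and 6 days in 2% horse serum, with 3 libraries in each group except WT on day 0, which had 2. The titles give the last time point as day 6 and the series text as day 5; the titles were followed. The labels name neither the way the knockout was made nor whether the cells were 1 clone, and nothing says that replicates were separate cultures, so the p-values measure only the spread between these samples, which may be technical.

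Runx1 mRNA did not fall in the libraries labelled Runx1KO. It ran from 20.1 to 21.2 TPM (a level corrected for transcript length and depth) in WT on day 0 and from 28.5 to 29.6 TPM in KO-labelled ones. On day 6 the ranges were 38.1 to 49.8 TPM in WT and 82.1 to 85.3 TPM in KO-labelled ones. The mRNA level thus does not bear out the label, but it cannot check it either, since the position of the lesion is not given in the sources used here. The libraries labelled Runx1KO are therefore called labelled KO throughout, and each direction is theirs.

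Mef2 proteins are MADS-box transcription factors that bind an A/T-rich site as homodimers or heterodimers. In muscle they act with the myogenic bHLH factors of the MyoD family, they are held inactive by class IIa histone deacetylases, and they are activated by p38 MAP kinase, calcium/calmodulin-dependent kinase and calcineurin signalling. Mef2a and Mef2d are expressed broadly, whereas Mef2c is strongly tied to muscle, heart, neurons and immune cells.

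The members lie on different chromosomes. In GENCODE M21 (GRCm38, the assembly that mm10 names), Mef2a occupies chr7:67231163-67372858 on the minus strand, Mef2c chr13:83504034-83667080 on the plus strand and Mef2d chr3:88142372-88172086 on the plus strand. The start of the coding sequence encodes the conserved MADS box, which contacts DNA. The first 174 coding bases are shown because reads of 1 paralog could be taken for another where they are alike; capitals in Mef2c and Mef2d mark bases that differ from Mef2a.
Mef2a: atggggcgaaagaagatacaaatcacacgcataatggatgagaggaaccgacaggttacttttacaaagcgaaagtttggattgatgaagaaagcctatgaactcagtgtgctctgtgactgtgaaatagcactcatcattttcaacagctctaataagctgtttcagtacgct
Mef2c: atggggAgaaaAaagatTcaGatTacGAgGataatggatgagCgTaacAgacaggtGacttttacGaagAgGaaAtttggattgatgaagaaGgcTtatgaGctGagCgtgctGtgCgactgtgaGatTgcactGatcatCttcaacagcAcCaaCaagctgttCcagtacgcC
Mef2d: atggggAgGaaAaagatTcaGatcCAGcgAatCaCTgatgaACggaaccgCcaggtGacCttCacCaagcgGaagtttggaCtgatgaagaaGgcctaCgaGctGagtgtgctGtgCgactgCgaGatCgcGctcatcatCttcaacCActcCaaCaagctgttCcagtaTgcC
Over these bases Mef2c was 81.6% and Mef2d 77.6% identical to Mef2a, and Mef2c and Mef2d were 82.8% identical to each other. The annotated transcripts of the 3 genes shared no stretch of 31, 50 or 75 bases. Mef2a overlaps Lysmd4 on the opposite strand (100 to 397 counts per library), and Mef2d overlaps the antisense gene 1700113A16Rik (7 to 28 counts). Use of strand in counting is not given in the sources used here, so reads from these overlaps cannot be told apart.

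Library totals lay between 22197606 and 23684077 estimated counts, and 14187 genes passed the filter on low counts. Mef2a and Mef2d had at least 1485 counts in every library, while Mef2c passed only through the groups in which it was high. At this depth 3 counts per library, used as the floor, stand for 0.126 to 0.140 CPM (counts scaled to library size by TMM). The library labelled KO, day 1, replicate 2 stood apart: its deviation from its group mean correlated with transcript GC content across genes (Pearson r = -0.66, a description over 12757 genes, which are not independent replicates), against -0.24 to 0.23 in the 20 libraries of the other groups. The remaining replicates of its group were at 0.46, on the opposite side of a mean that includes replicate 2. Coding transcripts averaged 46.9% GC for Mef2a, 45.6% for Mef2c and 58.1% for Mef2d, with a median of 51.2% over the tested genes. Summed skeletal muscle markers (Myod1, Myf5, Des, Cdh15 and Chrna1) were higher in labelled KO without overlap on day 0 (1905 to 1998 CPM in WT, 2665 to 2816 CPM in labelled KO), day 3 (2539 to 2717 and 3365 to 3779 CPM) and day 6 (2276 to 2683 and 3610 to 4279 CPM), and overlapped on day 1 (2557 to 2746 and 2426 to 3049 CPM). Des was the largest part of the sum, with means of 1007 CPM in WT and 1613 CPM in labelled KO on day 0. Myf5 went the other way that day (35.1 and 13.0 CPM). Of the 5 markers, edgeR called 2 higher and 1 lower in labelled KO on days 0 and 1, and 3 higher and 1 lower on day 6. Of all genes, 17.5%, 42.2% and 42.9% were called on those days. Markers of other cell types summed to at most 0.53 CPM for adipocytes, 1.25 CPM for endothelial cells and 26.9 CPM for smooth and cardiac muscle. Blood cell markers reached 12.0 CPM and neuron markers 9.67 CPM, both highest in labelled KO on day 6, where blood markers ran from 9.97 to 12.0 CPM (2.97 to 5.03 CPM in WT) and neuron markers from 6.97 to 9.67 CPM (1.37 to 1.93 CPM in WT). The defining blood markers Ptprc and Adgre1 and the neuron markers Rbfox3 and Snap25 stayed at or under 3 counts in every library of every group. Single genes of these lists were called higher in labelled KO on day 6 by edgeR: Cd68 in the blood list (log2FC 1.68, adjusted p = 1.15e-05) and Slc17a7 in the neuron list (2.44, adjusted p = 7.93e-09). Myh6 of the smooth and cardiac muscle list had 0 to 2 counts in WT and 16 to 19 in labelled KO on day 6, the only group that took it past the filter, and is given without a test. The part of these genes in the results was not tested.

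**Figure D1:**
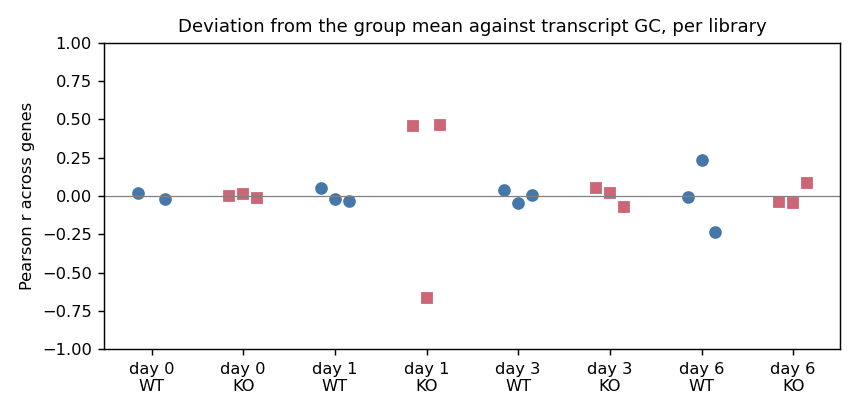
Pearson r across genes between each library's deviation from its group mean and transcript GC content, by group (circles WT, squares labelled KO). Labelled KO, day 1, replicate 2 sits at -0.66 and the remaining replicates of its group at 0.46, whereas the 20 libraries of the other groups lie between -0.24 and 0.23.

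Mef2a was higher in labelled KO than in WT on every day. In WT it read 21.52 and 19.12 TPM on day 0, 51.38, 49.21 and 52.86 TPM on day 1, 51.81, 54.12 and 48.97 TPM on day 3, and 39.76, 37.12 and 55.54 TPM on day 6. Labelled KO libraries read 27.77, 26.43 and 28.27 TPM on day 0, 70.24, 98.08 and 77.72 TPM on day 1, 86.22, 73.42 and 72.45 TPM on day 3, and 90.88, 88.70 and 84.30 TPM on day 6. The genotypes did not overlap on any day, and the lowest differentiating library labelled KO (70.24 TPM) lay above the highest WT library (55.54 TPM). Ordered by mean level, WT on day 0 was lowest, followed by labelled KO on day 0, WT on days 6, 1 and 3, and labelled KO on days 3, 1 and 6. The 3 WT groups in low serum overlapped one another, as did the 3 labelled KO groups in low serum.

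By edgeR's quasi-likelihood test, adjusted by Benjamini-Hochberg over all tested genes, Mef2a was higher in labelled KO by a log2 fold change (log2FC) of 0.50 ± 0.11 (SE) on day 0, with an adjusted p of 0.0016. The difference was 0.71 ± 0.09 on day 1 (adjusted p = 1.75e-06) and 1.14 ± 0.09 on day 6 (adjusted p = 7.06e-10). On day 3, where no test applies, it was 0.73. Of all tested genes, 17.5% were called on day 0 (7.36% higher and 10.1% lower), 42.2% on day 1 (22.9% and 19.2%), 43.2% on day 3 (24.0% and 19.2%) and 42.9% on day 6 (22.0% and 20.8%), so a call on days 1 to 6 was common. The day 0 call was lost with limma on log2(TPM + 1), which gave 0.42 and an adjusted p of 0.0503. Without labelled KO, day 1, replicate 2, the day 1 difference was 0.58 (adjusted p = 7.92e-06).

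Mef2a rose by the first day in low serum. From day 0 to day 1 its log2FC was 1.20 ± 0.11 in WT (adjusted p = 2.33e-09) and 1.42 ± 0.09 in labelled KO (adjusted p = 2.29e-11), where 54.7% and 52.3% of all genes were called. The labelled KO step was 1.32 without labelled KO, day 1, replicate 2. Between days 1 and 3 it moved by -0.03 in WT and -0.01 in labelled KO, with adjusted p of 0.881 and 0.975 and with 19.7% and 26.7% of genes called; without that replicate the labelled KO step was 0.081 (adjusted p = 0.519). From day 3 to day 6 it moved by -0.25 in WT (adjusted p = 0.094; 9.79% of genes called) and by 0.15 in labelled KO (adjusted p = 0.186; 41.3% called). The WT step was -0.35 (adjusted p = 0.0157) without WT, day 6, replicate 3, the highest of the 3 WT libraries of day 6, and -0.24 (adjusted p = 0.0311) without labelled KO, day 1, replicate 2. Over the whole course, day 6 against day 0, Mef2a rose by 0.93 in WT and 1.57 in labelled KO (adjusted p = 8.29e-08 and 6.71e-13). The difference between these changes was itself tested: the interaction was 0.64 ± 0.14 on day 6 (adjusted p = 0.0026; 13.0% of genes called) and 0.21 ± 0.14 on day 1 (adjusted p = 0.441; 3.95% called), the latter 0.059 without labelled KO, day 1, replicate 2 (adjusted p = 0.886). The day 6 interaction had an adjusted p of 0.061 with limma on log2(TPM + 0.1). In bulk RNA, more cells expressing a gene and more RNA per cell cannot be told apart.

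**Figure D2:**
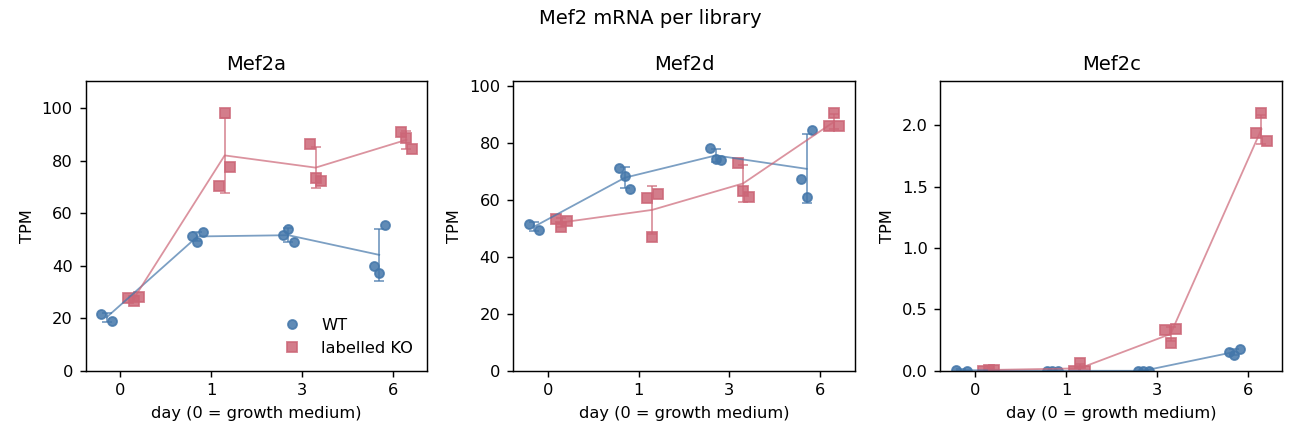
TPM per library for Mef2a, Mef2d and Mef2c by day (circles WT, squares labelled KO; lines join group means, bars are SD). Mef2a separates by genotype on every day, Mef2d overlaps between genotypes on day 0, and Mef2c stays below 2.2 TPM throughout.

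Mef2d, the most abundant member in every WT group, changed less. WT libraries read 51.67 and 49.47 TPM on day 0, 71.03, 68.40 and 63.93 TPM on day 1, 78.12, 74.51 and 74.16 TPM on day 3, and 67.16, 61.11 and 84.38 TPM on day 6. Labelled KO libraries read 53.29, 50.41 and 52.48 TPM on day 0, 60.61, 46.80 and 62.02 TPM on day 1, 73.09, 63.26 and 60.93 TPM on day 3, and 85.85, 90.41 and 85.92 TPM on day 6. All labelled KO libraries of day 1 lay below all WT libraries of that day, the same held on day 3, and on day 6 all lay above. In CPM the day 3 ranges overlapped (181 to 212 CPM in labelled KO, 192 to 205 CPM in WT). Day 6 labelled KO was the highest group and overlapped no other, while every neighbouring pair among the other 7 groups overlapped.

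Mef2d was higher in labelled KO on day 6, by 0.44 ± 0.09 in log2FC (edgeR, adjusted p = 0.000367). On day 0 the difference was 0.11 (adjusted p = 0.544), and on day 3, untested, -0.06. On day 1 the log2FC was -0.22, with an adjusted p of 0.0477. With 1 library left out at a time, the adjusted p rose above the threshold in 13 of 23 cases. Without labelled KO, day 1, replicate 2, the library with the lowest Mef2d, the log2FC was -0.12 and the adjusted p 0.191; the other 12, which include each WT library of day 1, gave -0.24 to -0.22 and adjusted p of 0.0511 to 0.0840. With only the day 1 groups in the fit the adjusted p was 0.147. The 2 interaction terms, -0.33 on day 1 and 0.33 on day 6, did not pass (adjusted p = 0.185 and 0.121), and without that library they were -0.25 (adjusted p = 0.182) and 0.28 (adjusted p = 0.0369).

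Over time the genotypes passed the test for Mef2d at different steps, though the difference between their day 1 changes did not pass the interaction test above. WT rose by 0.33 from day 0 to day 1 (adjusted p = 0.0087) and moved by 0.15 and -0.11 over the next steps (adjusted p = 0.277 and 0.531). Labelled KO libraries moved by -0.01 to day 1 (adjusted p = 0.965), by 0.31 from day 1 to day 3 (adjusted p = 0.0112) and by 0.39 from day 3 to day 6 (adjusted p = 0.0012). Without labelled KO, day 1, replicate 2, the first step was 0.13 (adjusted p = 0.124) and the middle step 0.16 (adjusted p = 0.0839); the middle step was 0.24 (adjusted p = 0.0779) without labelled KO, day 3, replicate 1. From day 0 to day 6 Mef2d rose by 0.37 in WT and 0.69 in labelled KO (adjusted p = 0.0029 and 3.18e-07), where 63.6% and 70.0% of genes were called.

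**Figure D3:**
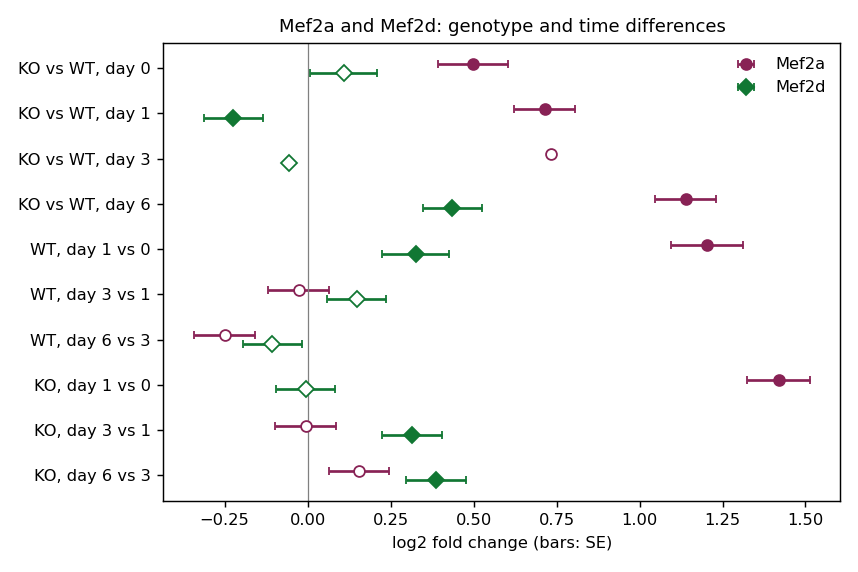
Log2 fold changes (edgeR; bars are SE) of Mef2a and Mef2d between genotypes and between consecutive days. Filled symbols passed an adjusted p of 0.05, and the day 3 genotype values carry no test and no bar; the Mef2a differences between genotypes run from 0.50 to 1.14 and those of Mef2d from -0.22 to 0.44.

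Mef2c, the muscle-tied member, was at or near 0 counts before day 3. Its estimated counts were 1 and 0 in WT and 0, 1 and 1 in labelled KO on day 0, and 0 in all 3 WT libraries of day 1. On day 1 labelled KO libraries had 0, 5 and 0 counts, all 5 in the GC-deviating replicate 2. On day 3 WT still had 0, 0 and 0 counts, and labelled KO libraries had 29, 19 and 28. On day 6 WT had 12, 11 and 13 counts and labelled KO libraries 154, 183 and 167. Mef2c thus first exceeded the floor in all libraries of a group on day 3 in labelled KO and on day 6 in WT. A count of 0 here means that it was not detectable at this depth.

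In TPM, Mef2c averaged 0.30 ± 0.06 in labelled KO on day 3 (SD, n = 3), 0.15 ± 0.03 in WT on day 6 and 1.97 ± 0.12 in labelled KO on day 6. Day 3 labelled KO therefore lay above day 6 WT, without overlap (0.23 to 0.34 TPM against 0.13 to 0.18 TPM). The day 3 genotype difference, which chose the family, was at least 8.75-fold against the floor per library and is given as a description. On day 6 Mef2c was 14.2-fold higher in labelled KO by normalised counts (95% interval 10.1 to 20.5, exact binomial, counting error only), without overlap. Since Mef2c passed the low-count filter only through the groups in which it was high, its changes are given as descriptions, with no test. On day 6 it was at least 3.96-fold higher than on day 3 in WT, and 6.43-fold higher in labelled KO (5.04 to 8.29). The day 3 to day 1 ratio in labelled KO was 15.6 (6.39 to 49.3), with all 5 counts of day 1 in replicate 2; without that library the day 1 group is at 0. The day 6 to day 0 ratio was 22.9 in WT (3.86 to 929.67) and 238 in labelled KO (65.5 to 1970.31), each resting on 1 or 2 counts on day 0. The day 1 to day 0 ratio in labelled KO was 2.38 (0.389 to 25.0).

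Because TPM corrects for length, the members can be set against each other as shares of their summed TPM. The sum was 70.9 ± 3.26 TPM in WT (n = 2) and 79.6 ± 2.35 TPM in labelled KO (n = 3) on day 0, and 115 ± 22.0 and 177 ± 4.71 TPM on day 6 (SD, n = 3). Mef2a made up 28.6 ± 1.08% of it in WT and 34.6 ± 0.40% in labelled KO on day 0, 43.0 ± 1.94% and 59.0 ± 7.58% on day 1, 40.6 ± 1.30% and 53.9 ± 0.28% on day 3, and 38.2 ± 1.31% and 49.6 ± 1.10% on day 6. The genotypes did not overlap on any day. Mef2d was thus the larger part in all WT groups, Mef2a was the larger part in labelled KO on days 1 and 3, and on day 6 labelled KO held nearly equal parts (49.6% Mef2a and 49.3% Mef2d). Mef2c made up at most 1.16% in any library.

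Over days 0, 1 and 6 (17 libraries) the Mef2a share was on average 11.1 percentage points higher in labelled KO and the Mef2d share was lower (-11.4 points). An exact two-sided permutation test within days gave p = 0.00025 for Mef2a, the smallest that its 4000 arrangements can give (0.000375 adjusted over the 3 shares computed). With Mef2c at most 1.16%, the Mef2d share is close to the remainder of the Mef2a share and is no separate result. The Mef2c share differed by 0.33 points, nearly all of it on day 6, given as a description. In labelled KO, day 1, replicate 2, Mef2a reached 67.7% of the sum. Without that library the mean Mef2a difference was 9.66 points and that of Mef2d -9.98 points. Shares from CPM, not corrected for length, differed by 11.2 and -11.6 points.

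**Figure D4:**
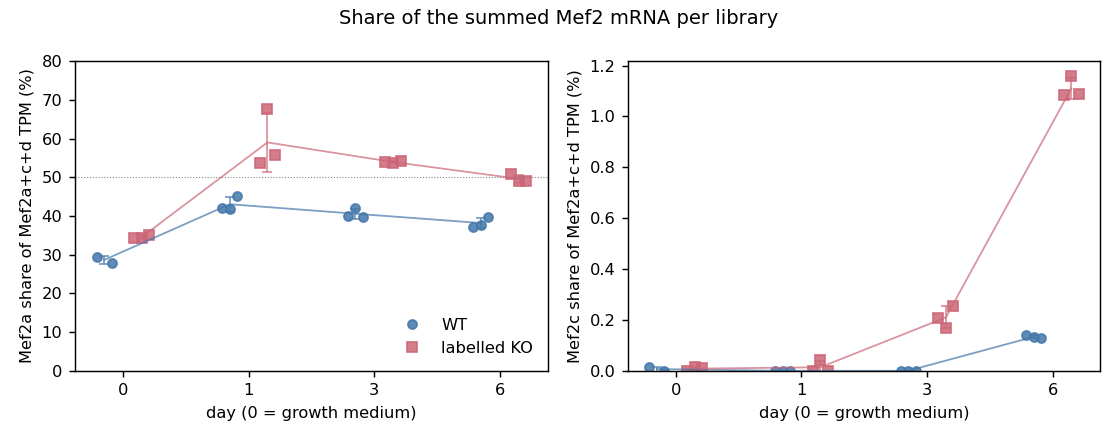
Share of Mef2a (left) and Mef2c (right) in the summed TPM of Mef2a, Mef2c and Mef2d, per library (circles WT, squares labelled KO; lines join means, bars are SD; the dotted line is 50%). Mef2a lies at 27.9 to 45.3% in WT and at 34.3 to 67.7% in labelled KO; Mef2c reaches 1.16%.

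The ratio of deposited count to TPM gives the effective transcript length used by the authors, up to a factor shared by a library. Relative to WT on day 0, and after removing that factor, it stayed within 1.00 to 1.01 for Mef2a in all libraries. For Mef2d it rose to a group mean of 1.05 in WT on day 6. The highest single library was at 1.07.

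Promoter windows of the 3 members were read from RefSeq (GRCm38.p6), from 250 bases before to 50 bases after each start. All 3 genes matched, with 5 windows, as Mef2c has 3 starts. The first window of each gene is shown, because the members rose at different times; the other 2 of Mef2c, at 47% and 48.3% GC, are not printed. Capitals mark a match to the MEF2 consensus site.
Mef2a, chr7:67372809-67373108, minus strand: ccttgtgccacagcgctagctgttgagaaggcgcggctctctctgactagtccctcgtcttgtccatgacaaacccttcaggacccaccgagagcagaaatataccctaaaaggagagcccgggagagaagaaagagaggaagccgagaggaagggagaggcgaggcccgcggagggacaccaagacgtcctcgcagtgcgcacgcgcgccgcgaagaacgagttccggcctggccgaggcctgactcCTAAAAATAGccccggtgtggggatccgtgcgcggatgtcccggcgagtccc
Mef2c, first start, chr13:83503784-83504083, plus strand: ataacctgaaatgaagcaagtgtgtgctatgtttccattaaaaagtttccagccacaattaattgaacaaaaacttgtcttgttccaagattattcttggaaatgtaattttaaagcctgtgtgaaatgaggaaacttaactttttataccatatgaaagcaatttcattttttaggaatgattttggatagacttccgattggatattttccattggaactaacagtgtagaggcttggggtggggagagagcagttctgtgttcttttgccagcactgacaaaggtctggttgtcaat
Mef2d, chr3:88142122-88142421, plus strand: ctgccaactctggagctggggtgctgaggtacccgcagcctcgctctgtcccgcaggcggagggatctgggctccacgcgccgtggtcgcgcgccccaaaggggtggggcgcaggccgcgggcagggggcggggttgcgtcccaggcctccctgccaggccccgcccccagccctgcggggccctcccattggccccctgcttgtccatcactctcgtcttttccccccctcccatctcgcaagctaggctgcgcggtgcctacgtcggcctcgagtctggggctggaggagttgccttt
The MEF2 consensus, searched on both strands, matched once in the 5 windows, as CTAAAAATAG at positions -2 to 7 of Mef2a, counted from 0 at the annotated start. It is present in 3.19% of the 32817 RefSeq windows of the same length. The letters TGTGGT of a RUNX site and CAGCTG of an E-box, on either strand, were in none of the 5, against 16.8% and 16.3% of all windows. The GC content of the shown windows was 62.3% for Mef2a, 35.7% for Mef2c and 72% for Mef2d. These are letter matches in short windows only.

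Known Mef2 targets were followed in a list of 20 genes, of which 19 passed the filter (Meg3 did not). Contractile, metabolic and regulatory muscle genes make up most of it. In labelled KO against WT, Xirp2 and Myf6 are given by counts only, since few or no libraries beyond their high groups reached the minimum count, which leaves 17 (a choice made after seeing the data). Of these, 5 were called on day 0 (4 higher, 1 lower; median log2FC 0.05), where 17.5% of all genes were. On that day Mb and Srpk3 had 0 counts in every library, Ckm at most 2 and Myog at most 4. Such genes could hardly be called, so the day 0 count and median are partly fixed by low counts. On day 1 it was 15 (10 higher, 5 lower; median 0.72), beside 42.2% of all genes, and on day 6 it was 16 (13 higher, 3 lower; median 1.65), beside 42.9%. With both genes included the counts were 6, 16 and 18, and that of day 1 was 13 without labelled KO, day 1, replicate 2. The medians over all tested genes were 0.00, 0.03 and 0.00. On day 3 the median log2FC of the 17 was 1.06, against 0.04 over all genes. This contrast chose the family, so its calls are not counted and nothing is read from it. From day 0 to day 6, 18 of 19 were called in WT (17 higher, 1 lower) and 17 in labelled KO (16 higher, 1 lower); targets at 0 on day 0 passed the filter only through later groups, so these counts are a description. Their median log2FC was 4.45 and 4.67, or 2.67 and 3.30 with genes at 0 on day 0 set to the floor, against 0.05 over all genes in both. Of all genes, 32.6% rose and 31.1% fell over this span in WT, and 36.6% and 33.5% in labelled KO. The list was written with earlier results of these data known, and many of its genes are general markers of muscle differentiation. The summed skeletal muscle markers, which share Des, their largest part, with the list, also lay higher in labelled KO on days 0, 3 and 6, as given above. Their part in these counts was not tested.

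Among the targets, Xirp2, an actin-binding repeat protein, had 5, 3 and 0 counts in WT and 175, 205 and 169 in labelled KO on day 6. It passed the filter only through labelled KO groups, so this is a description. Myoglobin (Mb), the oxygen-binding protein of muscle, read 13.8, 7.85 and 10.2 CPM in WT and 186, 250 and 243 CPM in labelled KO on day 6 (log2FC 4.41 ± 0.20, adjusted p = 3.51e-13). Muscle creatine kinase (Ckm) read 26.4, 24.5 and 21.3 CPM and 385, 424 and 454 CPM (log2FC 4.13 ± 0.20, adjusted p = 3.97e-13). In these 3 genes every labelled KO library lay above every WT library. Myogenin (Myog), a bHLH factor and itself a Mef2 target, averaged 149 ± 16.7 CPM in WT and 909 ± 101 CPM in labelled KO on day 6 (SD, n = 3; log2FC 2.61 ± 0.26, adjusted p = 1.78e-08). From day 0 to day 6 in WT, Mb rose at least 78.6-fold and Srpk3, a muscle kinase, at least 36.9-fold.

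The targets that went the other way on day 6 were Hdac9, Jun and Klf6. Hdac9, a class IIa deacetylase that both represses Mef2 proteins and is induced by them, read 6.70, 5.54 and 9.64 CPM in WT and 2.74, 3.44 and 3.05 CPM in labelled KO (log2FC -1.25 ± 0.21, adjusted p = 4.86e-05). It was lower in these libraries already on day 0 (log2FC -2.95, adjusted p = 1.95e-06). From day 0 to day 6 Hdac9 rose in WT by 1.59 (adjusted p = 8.51e-06). Jun and Klf6, immediate early transcription factors, were lower by smaller amounts (-0.35 and -0.34 on day 6; adjusted p = 0.0011 and 0.000177). Klf6 was also the target that fell in WT over the course (-0.19, adjusted p = 0.0275).

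The sarcomeric targets Xirp1 and Smyd1, chosen after their values were seen, differed in growth medium. On day 0 Xirp1 read 8.89 and 9.40 CPM in WT and 70.1, 94.1 and 105 CPM in labelled KO (log2FC 3.30 ± 0.18, adjusted p = 1.80e-12). Smyd1, a muscle methyltransferase, read 0.70 and 1.06 CPM and 9.26, 8.73 and 9.92 CPM (log2FC 3.39 ± 0.23, adjusted p = 8.91e-11). Mef2c was at 0 or 1 count in all of these libraries. A link between any Mef2 member and these differences was not tested. On day 6 the differences were 1.53 for Xirp1 and 1.44 for Smyd1.

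**Figure D5:**
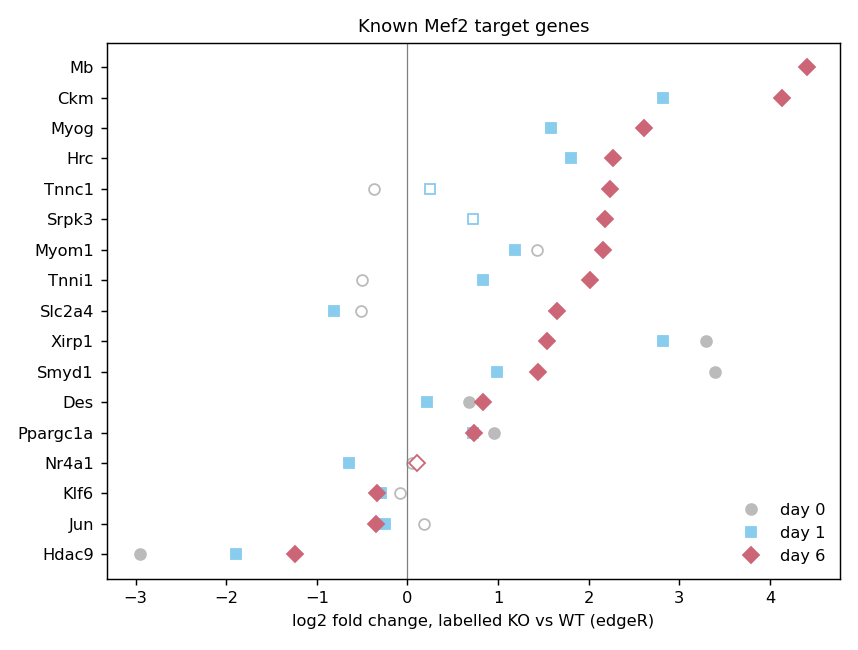
Log2 fold change (edgeR) of the 17 Mef2 target genes other than Xirp2 and Myf6, labelled KO against WT, on days 0, 1 and 6; filled symbols passed an adjusted p of 0.05, and points are left out where either group had at most 3 counts in every library. On day 6, 13 genes lie to the right and called, and Hdac9, Jun and Klf6 to the left and called.

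Regulators of Mef2 activity and partner genes were followed in 4 lists. On day 6 42.9% of all genes were called between genotypes (22.0% higher, 20.8% lower). The counts of the deacetylase and coactivator lists lie near or below that share, so they are no result about these lists. The kinase and calcineurin list, with 7 of 13 tested genes called, lies above it and is given as a description, with no set test. Of 8 class IIa deacetylases and corepressors, 1 was higher and 2 were lower in labelled KO on day 6 (median log2FC 0.08): besides Hdac9, Hdac3 was lower (-0.22, adjusted p = 0.0179) and Hdac4 higher (0.30, adjusted p = 0.0205), the last with an adjusted p of 0.290 in limma on log2(TPM + 1). Hdac4 was lower in labelled KO on day 0 (edgeR, -0.36, adjusted p = 0.0384) and day 1 (-0.34, adjusted p = 0.0120). The day 0 call was lost in limma on log2(TPM + 1) (0.0626), and that of day 1 without labelled KO, day 1, replicate 2 (0.0569). Of 8 coactivators, 2 were higher: Vgll2, a muscle cofactor of TEAD and Mef2 proteins (1.38 ± 0.23, adjusted p = 3.69e-05), and Ash2l, a histone methyltransferase subunit (0.32, adjusted p = 0.000995; 0.0673 in limma on log2(TPM + 1)). Earlier, Vgll2 went the other way, by -0.76 on day 0 (edgeR, adjusted p = 0.0700) and -0.68 on day 1 (adjusted p = 0.0353). The day 1 call was lost without labelled KO, day 1, replicate 2 (-0.47, adjusted p = 0.164). Of 15 activating kinases and calcineurin genes, 13 were tested, and 2 were higher and 5 lower (median -0.12). The higher ones were Map2k5, a MAP kinase kinase (0.30, adjusted p = 0.0151), and Camk2d, a calmodulin-dependent kinase (0.24, adjusted p = 0.0185). Neither passed with library size as the only scaling (adjusted p = 0.0527 and 0.125) or in limma on log2(TPM + 1) (0.344 and 0.303). On day 1 Camk2d was lower in labelled KO (edgeR, -0.25, adjusted p = 0.0174), a call lost in limma on log2(TPM + 1) (0.286). The calmodulin-dependent kinase Camk2g averaged 126 ± 2.34 CPM in WT and 86.5 ± 1.53 CPM in labelled KO on day 6 (SD, n = 3; log2FC -0.54, adjusted p = 2.65e-07). Mapk11, a p38 kinase, was lower (-0.56, adjusted p = 0.000193), as was the p38 activator Map2k6 (-0.60, adjusted p = 0.0306). In WT the calcineurin catalytic subunit Ppp3ca rose from day 0 to day 6 by 1.30 (adjusted p = 3.26e-10) and Mapk11 fell (-1.33, adjusted p = 4.12e-10). Of the 4 myogenic bHLH genes, Myog was higher and Myf5 lower on day 6 (Myf5 -0.34, adjusted p = 0.000692), and Myf6 had 0 to 4 counts in WT and 7 to 18 in labelled KO.

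The remaining MADS-box genes of these tables were Mef2b and Srf. Mef2b had 1 to 37 counts per library, with 1 and 2 counts in WT on day 0 and 37, 20 and 17 counts in WT on day 6. In TPM it read 2.40, 1.22 and 1.26 in WT on day 6, above Mef2c in the same libraries, and its day 6 genotype difference was -0.55 (adjusted p = 0.285). On day 1 it had 5, 5 and 12 counts in WT and 3, 1 and 1 in labelled KO (log2FC -2.01, adjusted p = 0.0189), a call lost without labelled KO, day 1, replicate 2 (-1.76, adjusted p = 0.0714) and in limma on log2(TPM + 1) (adjusted p = 0.0511). Srf, the serum response factor, was higher in labelled KO on day 6 by 0.36 (adjusted p = 0.0225; 0.144 in limma on log2(TPM + 1)) and fell in WT over the course (-0.58, adjusted p = 0.000805).

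Likeness of pattern was measured as Pearson's r between log2 CPM group means over the 8 groups, among 10831 genes that reached 5 CPM in a group; the points share libraries, and no p is given. Mef2a was nearest to Spty2d1, Lrig1, Smad3, Cfl2 and Flrt2 (r from 0.97 to 1.00). Lrig1, for example, averaged 54.5 CPM in WT and 76.2 CPM in labelled KO on day 0, and 107 and 174 CPM on day 6. Mef2c was nearest to Adprhl1, Smpx, Fsd2, Fam53b and Grtp1 (r from 0.97 to 0.98). Mef2c had 0 to 5 counts per library on days 0 and 1 and 0 in WT on day 3. All r values of Mef2c therefore rest partly on values at the floor and on the day 3 values that chose the family. Adprhl1 averaged 0 CPM in both genotypes on days 0 and 1, then 0.03 and 3.99 CPM on day 3 and 1.99 and 23.9 CPM on day 6. Mef2d was nearest to Dennd6b, Prss36, Ptges3l, Ctif and Dlgap4 (r from 0.97 to 0.98). Between members r was 0.59 for Mef2a and Mef2c, 0.63 for Mef2a and Mef2d, and 0.76 for Mef2c and Mef2d.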

How the data were processed

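Per the labels, poly(A) RNA of C2C12 cells was sequenced in 23 libraries, grouped by day and genotype from the titles. The submitters' processing notes name Bowtie2, RSEM and mm10, without versions or roles; annotation, strand and filters are not given in the sources used here. The authors deposited estimated counts per gene symbol, as whole numbers, and TPM. The estimated counts were rounded, which changed no value, and tested with edgeR 4.0.16 (R 4.3.3): filterByExpr (minimum count 10, minimum total count 15), TMM scaling and 1 quasi-likelihood group-means model over all libraries, with Benjamini-Hochberg adjustment over 14187 genes and a threshold of 0.05. The script was tested on simulated data. Shares were computed from TPM and compared by exact permutation within days. Alternatives were other scalings, filters, DESeq2 1.42.0, limma 3.58.1 on log2(TPM + 1) and log2(TPM + 0.1), only the compared groups, a replicate block and leaving out each library. Replicates of a group differed beyond sampling noise (chi-square per degree of freedom 3.10 to 61.3). Members and gene lists were chosen with earlier results of these data known. Named genes are the members, Runx1, at most the 3 most positive and 3 most negative called genes of each list (day 6 genotype difference; WT day 6 against day 0), and the 5 genes most like each member; Xirp1 and Smyd1 fall outside this rule and were named after their values were seen. Intervals and floors cover counting error only, since no molecular identifiers were used to separate duplicates. Sequences are from RefSeq and GENCODE M21.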

Additional observations from a re-analysis of the deposited data

Results flagged for a closer look

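The change of Mef2a from growth medium to day 6 differed between genotypes: the interaction in edgeR was a log2FC of 0.64 (SE 0.14, adjusted p = 0.0026), with every labelled KO library of day 6 above every WT library. Leaving out 1 library at a time gave 0.54 to 0.70, with adjusted p from 0.000673 to 0.0472.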

How the results depend on the processing

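Of 832 alternative log2FC of Mef2a and Mef2d with a test, 783 kept direction and side of the threshold, and all 198 target counts stayed within 1.5 times the main count. The cause of the other changes was not tested. With limma on log2(TPM + 1) and log2(TPM + 0.1), Mef2a on day 0 was 0.42 (adjusted p = 0.0503) and 0.44 (0.0536), Mef2d on day 1 -0.27 (0.0590) and -0.27 (0.0681), Mef2a in WT from day 1 to 3 0.013 and 0.013, and Mef2d in the libraries labelled KO 0.10 and 0.11 to day 1, then 0.22 (0.150) and 0.23 (0.164) to day 3; on log2(TPM + 1) the untested day 3 differences were 0.57 for Mef2a and -0.20 for Mef2d, and on log2(TPM + 0.1) the day 6 interaction of Mef2a was 0.58 (0.061). With only the compared groups, Mef2d was -0.25 on day 1 (0.147), 0.13 in WT from day 1 to 3 (0.0338), 0.00306 and 0.29 (0.184) for the labelled KO steps to days 1 and 3, and 0.31 for the day 6 interaction (0.0457); with library size only, the labelled KO step to day 1 was 0.076. Leaving out 1 library gave Mef2d on day 1 from -0.29 to -0.12 (adjusted p 0.0180 to 0.191), its labelled KO steps -0.076 to 0.13 and 0.16 to 0.38, and its day 6 interaction 0.26 to 0.33; Mef2a moved from -0.062 to 0.015 (WT, day 1 to 3), -0.35 to -0.19 (WT, day 3 to 6) and -0.084 to 0.081 (labelled KO, day 1 to 3), and the Mef2c share difference from 0.32 to 0.33 points.

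Counts over all genes with only the compared groups were 3607 (day 1 genotype; main 5981), 4642 (WT, day 1 to 3; main 2797), 1659 (labelled KO, day 1 to 3; main 3790) and 239 (day 1 interaction; main 560), and limma on log2(TPM + 0.1) gave 352 for that interaction. Leaving out 1 library gave 1265 to 3459 (day 0 genotype; main 2479), 762 to 2271 (WT, day 3 to 6; main 1389), 148 to 919 (day 1 interaction) and 1184 to 2844 (day 6 interaction; main 1839). The share of genotype calls that were higher was 42.1% on day 0, 54.4% on day 1, 55.5% on day 3 and 51.4% on day 6, against 29.7%, 43.4%, 34.2% and 34.8% in limma on log2(TPM + 1), and 29.5% on day 0 with library size only; the median of all genes in TPM on days 3 and 6 was -0.08 and -0.10, against 0.04 and 0.00. From day 0 to 6 in WT 51.2% of calls were higher, against 63.6% in TPM. Same-numbered libraries did not deviate together (mean correlation -0.09 to 0.06, from 2 or 3 pairs per comparison), so no pairing was used in the main fit. So few pairs cannot exclude that the numbers pair the libraries. The replicate block gave 1.14 for Mef2a on day 6 and 5959 calls over all genes (main 6082), and changed no call of Mef2a or Mef2d.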
